A study of Mus musculus with 8 samples.

Results

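Histone and DNA modifying enzymes write, remove or act on chemical marks of chromatin, and the genes described here were 44 of them, fixed by symbol and placed in 10 role groups. They comprise H3K4 methyltransferases and subunits outside the PTIP complex, H3K4 demethylases, Polycomb genes with the H3K27 demethylase Kdm6b, acetyltransferases, deacetylases, methyltransferases and demethylases of H3K9, H3K36 and H3K79, SWI/SNF subunits and genes of DNA methylation. Of the 44 genes, 42 were measured, out of 22180 genes tested on the arrays, and no filter on low values was set. The platform annotation gave Kdm2b only on a probe set that it assigns to more than 1 gene, and it gave no probe set for Suv39h1. Neither gene was analysed here.

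B-1a cells, which are innate-like B cells that maintain themselves by division, were sorted from the peritoneal lavage of mice aged 5 weeks. KO mice were CD19cre/+PTIPflox/flox and WT mice were CD19cre/+PTIP+/+, so that both genotypes carried the Cre allele, which is active in B lineage cells. Per the labels, 29 KO mice and 22 WT mice were divided into 4 pools per genotype, and each pool was measured on 1 array. The number of mice in each pool and their sex are not given by the labels. Values are log2 values, so a difference of 1 is a doubling, and a gene is described as called when its adjusted p was under 0.05.

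Lysine 4 of histone H3 (H3K4) is methylated at active promoters and enhancers by a family of SET domain enzymes, and PTIP, the product of Paxip1, belongs to the complexes built on MLL3 and MLL4 (Kmt2c and Kmt2d). Those complexes also hold KDM6A, a demethylase of the repressive H3K27 mark that Polycomb complex PRC2 sets. Other members of the family, such as MLL1 (Kmt2a), MLL2 (Kmt2b), SETD1A and SETD1B, work in complexes without PTIP. In B cells, several of these enzymes are known for roles in development, activation and lymphoma, among them EZH2, CREBBP and TET2.

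Paxip1 itself was at 4.66, 4.48, 4.79 and 3.58 in the KO pools, against 6.87, 7.13, 7.16 and 7.03 in the WT pools, a difference of -2.67 (SE 0.22, limma, adjusted p = 9.96e-05). The sorted cells carried B cell transcripts in every pool: the mean of 8 pan-B cell genes lay between 9.96 and 10.2 in KO and between 10.1 and 10.2 in WT. Of the 8, 1 was called, Cd22, which was lower in KO (-0.59, limma, adjusted p = 0.0170). Cd5, which marks B-1a cells among B cells, differed by 0.04. It was highest in pool 1 of each genotype, at 7.71 in KO and 7.63 in WT. What part T cells have in the Cd5 values was not tested. Of 7 genes on a B-1a list, 5 had negative and 2 positive differences, and 3 were called, all lower in KO. These were Itgam (-1.68, limma, adjusted p = 0.000191), Zbtb32 (-1.11, adjusted p = 0.00256) and Cd9 (-0.60, adjusted p = 0.0211). Ctla4 was higher in KO by 0.55 without overlap and was not called (adjusted p = 0.108). The mean of the list lay between 7.002 and 7.10 in KO and between 7.36 and 7.54 in WT. Markers of T cells were measured as well. Within each genotype they were higher in pools 1 and 2 than in pools 3 and 4, and highest in KO pools 1 and 2. Over 13 T cell markers the mean reached 7.25, 7.02, 5.30 and 5.84 in the KO pools, in order of pool number, against 5.58, 5.65, 4.96 and 4.69 in the WT pools, with 12 of the 13 higher in KO on average and 0 called (8 at an unadjusted p under 0.05). Of 10 NK cell markers, all 10 were higher in KO on average, with 2 called and 6 at an unadjusted p under 0.05 (limma). Their mean ranged from 3.93 to 5.03 in KO and from 3.30 to 4.01 in WT. For 13 macrophage markers the mean ranged from 4.61 to 4.93 in KO and from 4.53 to 5.28 in WT. Of these 13, 1 was called, Cd68, which was lower in KO (-0.56, limma, adjusted p = 0.0275). A proliferation list of 16 genes had means from 5.48 to 6.31 in KO and from 5.54 to 5.87 in WT, with 0 genes called (2 at an unadjusted p under 0.05). Pearson's r between arrays, taken over genes that are no independent replicates, was between 0.986 and 0.993.

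Of the 42 measured enzyme genes, 1 rose in KO, the H3K27 demethylase gene Kdm6b, and 0 fell. Of the members 2.38% were thus called, against 3.59% of all genes, 1.49% higher and 2.10% lower in KO. The arrays hold many dim genes, and among the 7828 genes whose mean value lay between those of the lowest and the highest member 7.68% were called. Differences ran from -0.33 for the methylcytosine dioxygenase gene Tet3 to 0.46 for Kdm6b, with a median of -0.03, against a median of 0.02 over all genes. Of the members, 20 had positive and 22 negative differences. At an unadjusted p under 0.05 there were 10 members, 6 higher and 4 lower in KO, or 23.8%, against 15.3% of all genes and 26.5% of the genes in the members' range of mean value. The 4 KO values did not overlap the 4 WT values in 6 members (14.3%), against 10.5% of all genes and 20.4% of the genes in that range. Those 6 were Kdm6b, Kdm5b, Kdm5a, Crebbp and Hdac2, which were higher in KO, and Kmt2e, which was lower. By these counts the members did not stand above genes of like level.

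Most of the differences were small and narrowly bounded. The SE of a member's difference had a median of 0.09, and the 95% interval of the fit stayed within a 1.5-fold change in either direction (0.58 on the log2 scale) for 39 of the 42 members. The other 3 were Kdm6b, the H3K9 demethylase gene Kdm4b and Tet3. Intervals within 1.5-fold were common on these arrays. They were found for 92.9% of the members, 84% of the genes in the members' range of mean value and 19676 of all 22180 genes. A difference had to reach between 0.30 and 0.65, depending on the member's own SE, to be called, with a median of 0.38, so smaller changes of these genes were not detectable with 8 arrays. In such bulk samples, fewer cells that express a gene and less of its RNA per cell cannot be told apart.

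**Figure D1:**
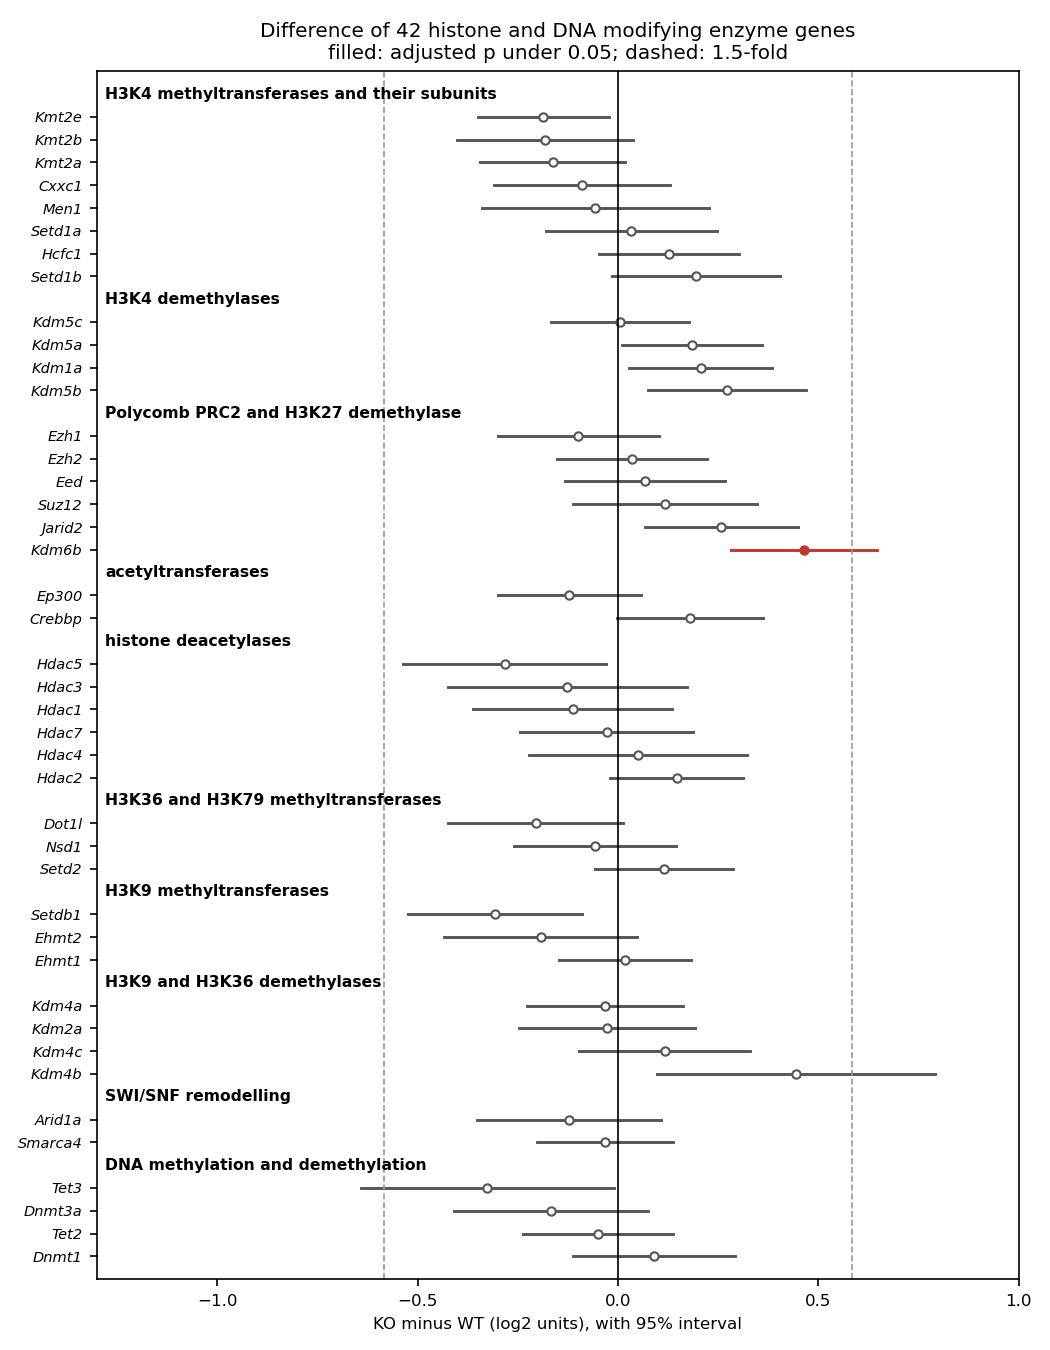
Difference between KO and WT on the log2 scale (horizontal axis) for the 42 measured members, grouped by role, with points for the estimate and lines for the 95% interval of the limma fit over 4 pools per genotype. Only Kdm6b, filled, had an adjusted p under 0.05, and 39 of the 42 intervals lie between the dashed lines at 1.5-fold.

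After Kdm6b, the members with the smallest p were the H3K9 methyltransferase gene Setdb1, lower in KO, and the H3K4 demethylase gene Kdm5b, higher in KO, and neither was called. Their promoters are shown because these genes had opposite differences and each has 1 entry in the RefSeq promoter table (build GRCm38.p6). Kdm6b, the called member, has no entry in that table, so its promoter is not shown. Each window runs from 250 bases before to 50 bases after the annotated start. Capitals mark CpG, the letters CG, the same on both strands. CpG is the site that DNMT1 and DNMT3A methylate, that TET enzymes act on and that CXXC domain proteins such as CXXC1, KMT2A and KDM2A bind when it is unmethylated. Setdb1 lies at chr3:95357153-95357452 on the minus strand and Kdm5b at chr1:134559928-134560227 on the plus strand.
Setdb1: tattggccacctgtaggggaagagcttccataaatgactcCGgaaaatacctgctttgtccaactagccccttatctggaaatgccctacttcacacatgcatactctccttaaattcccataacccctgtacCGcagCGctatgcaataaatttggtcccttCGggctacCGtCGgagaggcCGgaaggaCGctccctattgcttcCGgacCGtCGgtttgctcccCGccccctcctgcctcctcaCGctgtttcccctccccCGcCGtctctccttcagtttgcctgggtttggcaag
Kdm5b: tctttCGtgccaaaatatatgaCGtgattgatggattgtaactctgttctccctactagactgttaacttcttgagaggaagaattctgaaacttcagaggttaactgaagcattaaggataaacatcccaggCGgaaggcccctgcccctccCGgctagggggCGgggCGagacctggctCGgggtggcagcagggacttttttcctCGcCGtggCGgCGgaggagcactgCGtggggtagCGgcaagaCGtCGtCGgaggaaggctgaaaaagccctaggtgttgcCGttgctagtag
Setdb1's window held 15 CpG and that of Kdm5b held 17, numbers that 34.6% and 31.4% of all 32851 promoters of the table reached. Of the members, 33 had an entry in the table, 31 of them measured, with 50 promoters in all. At least 1 CpG was present in 49 of these 50, against 94.6% of all promoters. The median was 28 CpG in the members' promoters, with a range from 0 to 57, and 7 in all promoters. These counts describe the reference sequence and say nothing about methylation in these cells.

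Polycomb complex PRC2 methylates H3K27 through EZH1 or EZH2, with EED and SUZ12 as core subunits and JARID2 as a cofactor that helps to bring it to its targets, while KDM6B (JMJD3) removes the mark and is known as a gene induced by inflammatory signals in macrophages. Kdm6b was at 6.62, 6.47, 6.62 and 6.75 in the KO pools, against 6.12, 6.13, 6.19 and 6.17 in the WT pools. All 4 KO pools lay above the highest WT pool. Kdm6b rose by 0.46 (SE 0.08, 95% interval 0.28 to 0.65, limma, adjusted p = 0.0109), which is 1.38-fold. The exact permutation test (two-sided, all 70 ways to assign the arrays), run for this called member only, gave p = 0.0286. That is the smallest p that 4 against 4 pools allow. It follows from the lack of overlap and adds no further support. Without KO pools 1 and 2, the difference was 0.53 (adjusted p = 0.0407), and with the T cell marker level as covariate it was 0.54 (adjusted p = 0.0494).

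Kdm6b was the only member with a second probe set, and that probe set did not move with the first. It was dimmer, at 5.05, 4.99, 4.85 and 4.90 in the KO pools and 5.04, 5.05, 5.25 and 5.08 in the WT pools, and the groups overlapped. Its difference was -0.16 (SE 0.08, limma over all probe sets, adjusted p = 0.487). With the mean of both probe sets the difference of Kdm6b was 0.15 (SE 0.08, adjusted p = 0.377), so the call rests on the brighter probe set. The part and strand of the gene that each probe set covers are not stated by the annotation used.

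None of the other 5 members of this group was called. Jarid2 differed by 0.26 (95% interval 0.07 to 0.45, adjusted p = 0.162), Suz12 by 0.12, Eed by 0.07, Ezh2 by 0.03 and Ezh1 by -0.10. Ezh2, which is known to rise in dividing cells, was at 7.24, 7.21, 7.18 and 7.41 in the KO pools and 7.26, 7.11, 7.25 and 7.29 in the WT pools. Its highest value was in KO pool 4, the pool with the highest proliferation mean, 6.31, and WT pool 2 was the lowest WT pool in both. The other pools did not all follow that order. KO pool 1 had the lowest proliferation mean, 5.48, yet more Ezh2 than KO pools 2 and 3. A link between them was not tested. The 95% interval of the Ezh2 difference, -0.15 to 0.22, bounds the change well within 1.5-fold. KDM6A, the H3K27 demethylase of the PTIP complexes, is no member, and its gene Kdm6a differed by 0.07 (adjusted p = 0.801).

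**Figure D2:**
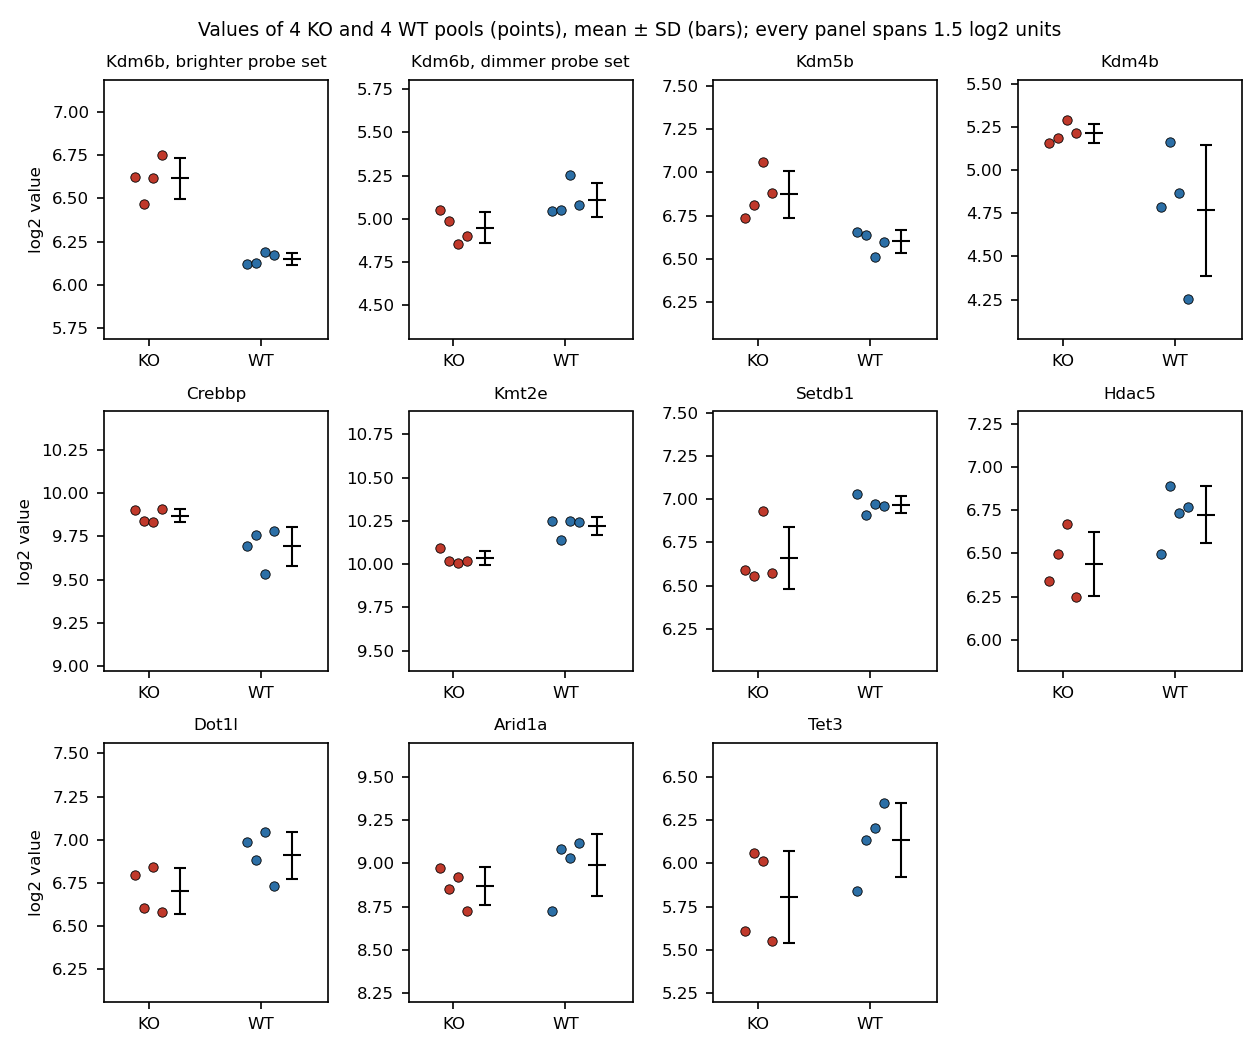
Log2 value of each pool (points), with mean ± SD (bars) of 4 KO and 4 WT pools, for both probe sets of Kdm6b and for the member with the smallest p in each of the other role groups. The KO and WT points are apart for the brighter Kdm6b probe set, Kdm5b, Crebbp and Kmt2e, and overlap in the other panels.

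The H3K4 demethylases had positive differences in all 4 genes, with a median of 0.20, and 0 of the 4 were called (3 at an unadjusted p under 0.05, limma). Kdm5b encodes a JmjC demethylase of trimethylated H3K4. It was at 6.74, 6.81, 7.06 and 6.88 in the KO pools, against 6.66, 6.64, 6.51 and 6.60 in the WT pools. The groups did not overlap, and the difference was 0.27 (SE 0.09, adjusted p = 0.152). Kdm1a, which encodes LSD1, a flavin-dependent demethylase of mono- and dimethylated H3K4, differed by 0.21 (95% interval 0.03 to 0.39, adjusted p = 0.247). Kdm5a, a paralog of Kdm5b, differed by 0.19 (95% interval 0.01 to 0.36, adjusted p = 0.289). Its X-linked paralog Kdm5c, which escapes X inactivation, was nearly equal, at 7.38 ± 0.07 in KO and 7.37 ± 0.06 in WT (SD, n = 4 pools each). Xist was between 11.04 and 11.42 in the KO pools and between 11.44 and 11.59 in the WT pools, and the Y-linked Kdm5d, Uty and Eif2s3y stayed between 2.11 and 2.70 in every KO pool and between 2.21 and 2.64 in every WT pool, near the floor of the arrays.

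Among the 8 H3K4 methyltransferases and their subunits 0 were called (1 at an unadjusted p under 0.05, limma), and 5 of the 8 differences were negative, with a median of -0.07. Kmt2e encodes MLL5, a SET and PHD domain protein of the MLL family. It was at 10.09, 10.02, 10.01 and 10.02 in the KO pools, against 10.25, 10.14, 10.25 and 10.24 in the WT pools. Every KO pool lay below every WT pool, yet the difference of -0.19 (SE 0.07, adjusted p = 0.252) was too small to be called. Kmt2b and Kmt2a, the genes of MLL2 and MLL1, differed by -0.18 and -0.16. Cxxc1, the CpG-binding subunit of the SETD1 complexes, differed by -0.09, and Men1, whose product menin tethers MLL1 and MLL2 to their targets, by -0.06. Men1 was at 6.67 in KO pool 1 and between 7.14 and 7.32 in the other 7 pools. On the positive side, Setd1b differed by 0.19, the HCF1 gene Hcfc1 by 0.13 and Setd1a by 0.03. All 8 intervals lay within a 1.5-fold change.

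The methyltransferases that PTIP works with are not members. MLL3 and MLL4 are encoded by Kmt2c, which was between 7.91 and 8.10 in KO and between 8.24 and 8.43 in WT, a difference of -0.33 (SE 0.08, limma, adjusted p = 0.0501), and by Kmt2d, which differed by -0.25 (SE 0.09, adjusted p = 0.197). Neither was called, and both are named with their values seen. Of the 4 core subunits that all these methyltransferases share, Wdr5, Rbbp5, Ash2l and Dpy30, 0 were called, with differences between -0.11 and 0.11.

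Acetyltransferases p300 and CBP, which acetylate H3K27 among other lysines, differed in opposite directions and 0 of the 2 were called (0 also at an unadjusted p under 0.05, limma). Crebbp, the CBP gene, was at 9.90, 9.84, 9.83 and 9.91 in the KO pools, against 9.69, 9.76, 9.53 and 9.78 in the WT pools. The groups did not overlap, with a difference of 0.18 (SE 0.08, adjusted p = 0.335). Ep300, the p300 gene, differed by -0.12 (95% interval -0.30 to 0.06).

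Histone deacetylases were not called in any of 6 genes (1 at an unadjusted p under 0.05, limma). The class IIa gene Hdac5 was at 6.34, 6.50, 6.67 and 6.25 in the KO pools, against 6.50, 6.89, 6.73 and 6.77 in the WT pools, and the groups overlapped. Its difference was -0.28 (SE 0.12, adjusted p = 0.264). Its class IIa relatives Hdac4 and Hdac7 differed by 0.05 and -0.03. The class I genes, whose products are the catalytic subunits of the large corepressor complexes, differed by 0.15 for Hdac2, -0.11 for Hdac1 and -0.13 for Hdac3. Hdac2 did not overlap between the groups. Hdac3 was at 6.03 in KO pool 4 and between 6.47 and 6.75 in the other 7 pools.

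Enzymes of H3K9 methylation, a mark of silent chromatin, included Setdb1, which represses endogenous retroviruses in B lineage cells. Setdb1 was at 6.59, 6.56, 6.93 and 6.57 in the KO pools, against 7.03, 6.91, 6.97 and 6.96 in the WT pools. KO pools 1, 2 and 4 lay below all WT pools, and KO pool 3 overlapped them. The difference was -0.31 (SE 0.10, limma, adjusted p = 0.139). Without KO pool 3 it was -0.40 and was called (adjusted p = 0.0276), and with the T cell marker level as covariate it was -0.18 (adjusted p = 0.610). Ehmt2 and Ehmt1, which encode the paired enzymes G9a and GLP of dimethylated H3K9, differed by -0.19 and 0.02, and 0 of the 3 measured genes were called (1 at an unadjusted p under 0.05).

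The demethylases of H3K9 and H3K36 had 0 calls among 4 measured genes (1 at an unadjusted p under 0.05, limma). Kdm4b was at 5.16, 5.19, 5.29 and 5.21 in the KO pools, against 4.79, 5.16, 4.87 and 4.25 in the WT pools. The KO pools were close together and the WT pools spread widely, so that the difference of 0.44 was close in size to that of Kdm6b but had an SE of 0.16 (adjusted p = 0.190). Its mean over all arrays, 4.99, was the lowest of the members. The paralogs Kdm4c and Kdm4a differed by 0.12 and -0.03, and Kdm2a, a CXXC domain demethylase of H3K36, by -0.03.

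Methyltransferases of H3K36 and H3K79, marks of transcribed gene bodies, were not called in any of 3 genes (0 also at an unadjusted p under 0.05, limma). Dot1l, the H3K79 enzyme, was at 6.79, 6.60, 6.84 and 6.58 in the KO pools, against 6.99, 6.88, 7.04 and 6.73 in the WT pools, and the groups overlapped. Its difference was -0.21 (SE 0.10, adjusted p = 0.358). The H3K36 enzyme genes Setd2 and Nsd1 differed by 0.12 and -0.06.

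Of the SWI/SNF genes, Arid1a, a DNA-binding subunit of the BAF remodelling complex, was at 8.97, 8.85, 8.92 and 8.72 in the KO pools, against 8.73, 9.08, 9.03 and 9.12 in the WT pools. WT pool 1 lay among the KO pools, and the difference was -0.12 (SE 0.10, limma, adjusted p = 0.655). The ATPase gene Smarca4 differed by -0.03 (95% interval -0.20 to 0.14). Neither gene passed at an unadjusted p under 0.05.

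Genes of DNA methylation and demethylation had 0 calls in 4 (1 at an unadjusted p under 0.05, limma). Tet3, whose product oxidises methylcytosine, was at 5.61, 6.06, 6.01 and 5.55 in the KO pools, against 5.84, 6.13, 6.21 and 6.35 in the WT pools. WT pool 1 lay within the KO range. The difference was -0.33 (SE 0.14, 95% interval -0.64 to -0.01, adjusted p = 0.307). Its relative Tet2 differed by -0.05, the de novo methyltransferase gene Dnmt3a by -0.17 and the maintenance methyltransferase gene Dnmt1 by 0.09, with an interval of -0.11 to 0.29.

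**Figure D3:**
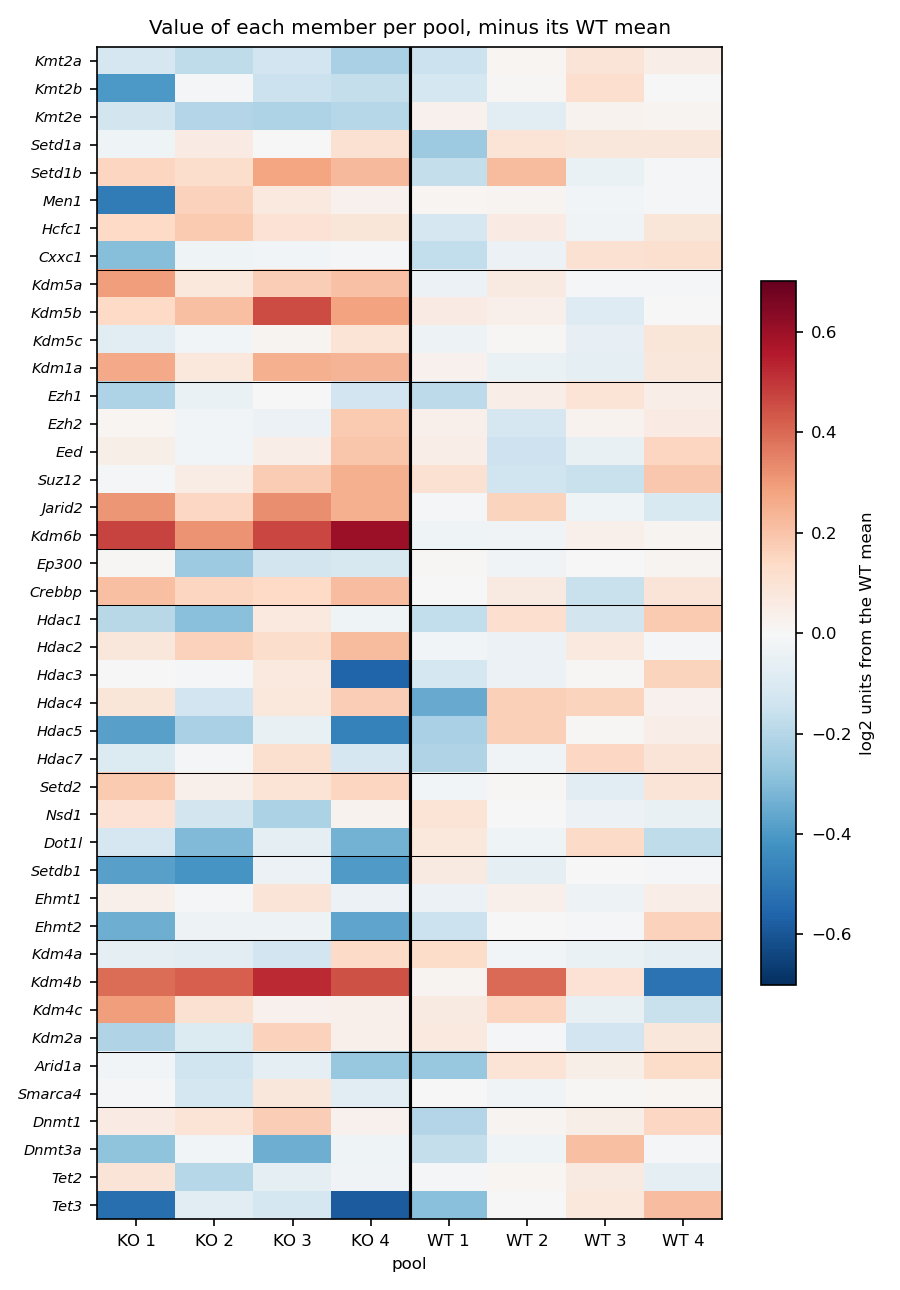
Log2 value of each of the 42 members (rows, in role groups separated by lines) in each pool (columns), minus the member's WT mean. Kdm6b is above its WT mean in all 4 KO pools, Men1 is low in KO pool 1 and Hdac3 in KO pool 4.

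Because KO pools 1 and 2 had the highest T cell marker means, the members were also fitted with that mean as a covariate. Kdm6b was the only member called there as well, while 1.30% of all genes were called (288 genes). The difference moved most for Hdac1, which was at 0.06 with the covariate and -0.11 without it, and for Kdm4c, which was at -0.04 with it and 0.12 without it, and 7 members changed sign, none of them called in either fit. Without KO pools 1 and 2, Kdm6b was again the only member called, and 5 uncalled members changed sign. The covariate itself differed between the genotypes, with an average of 6.35 in KO and 5.22 in WT. What part T cells have in any member's difference, that of Kdm6b included, was not tested.

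**Figure D4:**
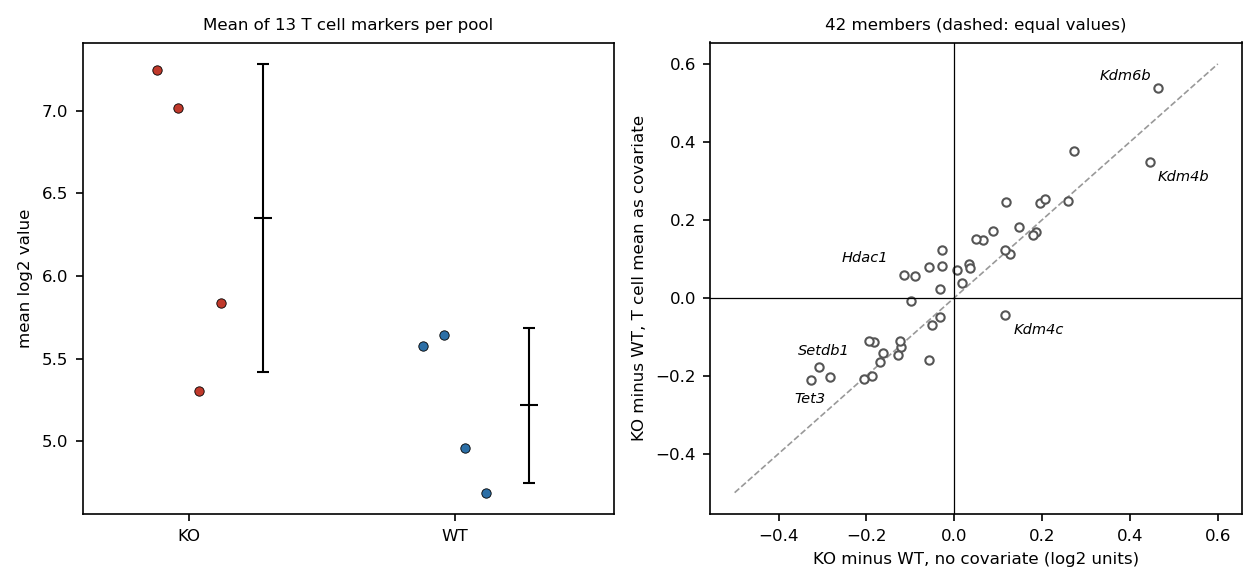
Left, mean log2 value of 13 T cell markers in each pool, with mean ± SD of 4 KO and 4 WT pools. Right, difference between KO and WT of the 42 members without (horizontal) and with (vertical) that mean as a covariate, in log2 units, where Kdm6b stays the highest point at 0.46 and 0.54.

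Lists of other chromatin genes, none of them members, give the rest of each process. Of 128 such genes, 3 rose and 4 fell, with a median difference of 0.04. These are 5.47%, against 3.59% of all genes and 7.68% of the genes in the members' range of mean value. Some of the 128 lie below that range. At an unadjusted p under 0.05 (limma) there were 27.3% of the 128, against 15.3% of all genes and 26.5% in that range. The groups did not overlap in 21.1%, against 10.5% and 20.4%. The corepressor list held the largest change of these 128 genes: Chd3, an ATPase of the NuRD deacetylase complex, rose by 0.94 (SE 0.10, limma, adjusted p = 0.000614). It was at 10.59, 10.46, 10.34 and 10.53 in the KO pools, against 9.63, 9.75, 9.36 and 9.42 in the WT pools, with no overlap. These values are from the brighter of the 2 probe sets of Chd3, and the dimmer one is not described here. Ncoa2, a nuclear receptor coactivator, rose by 0.38 (adjusted p = 0.0337), and the BAF subunit gene Arid1b, the paralog of Arid1a, also rose by 0.38 (adjusted p = 0.0397).

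Among the falls, the other lysine methyltransferases had 2 of 15. Prdm9, known for H3K4 methylation at meiotic recombination hotspots, fell by 0.85 (SE 0.10, limma, adjusted p = 0.00101), and Kmt5c, an H4K20 methyltransferase, fell by 0.60 (SE 0.13, adjusted p = 0.0280). Prdm9 was at 5.72, 5.78, 6.004 and 5.61 in the KO pools, against 6.69, 6.47, 6.68 and 6.70 in the WT pools. Kdm7a, a demethylase of H3K9 and H3K27, fell by 0.51 (SE 0.08, adjusted p = 0.00400), and was called alone among 11 other demethylases. The mitochondrial sirtuin gene Sirt4 fell by 0.53 (SE 0.12, adjusted p = 0.0398).

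Polycomb complex PRC1, which ubiquitinates histone H2A, had 12 of 16 differences above 0 and a median of 0.18, with 0 calls (5 at an unadjusted p under 0.05, limma). The 7 other PRC2 subunits, 7 arginine methyltransferases and 11 other DNA methylation genes and readers had 0 calls each, with medians of 0.07, 0.01 and 0.02. At an unadjusted p under 0.05 there were 2, 1 and 1 of them. The 5 genes of the PTIP complexes other than Paxip1 had a median of -0.25 and 0 calls (3 at an unadjusted p under 0.05).

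**Figure D5:**
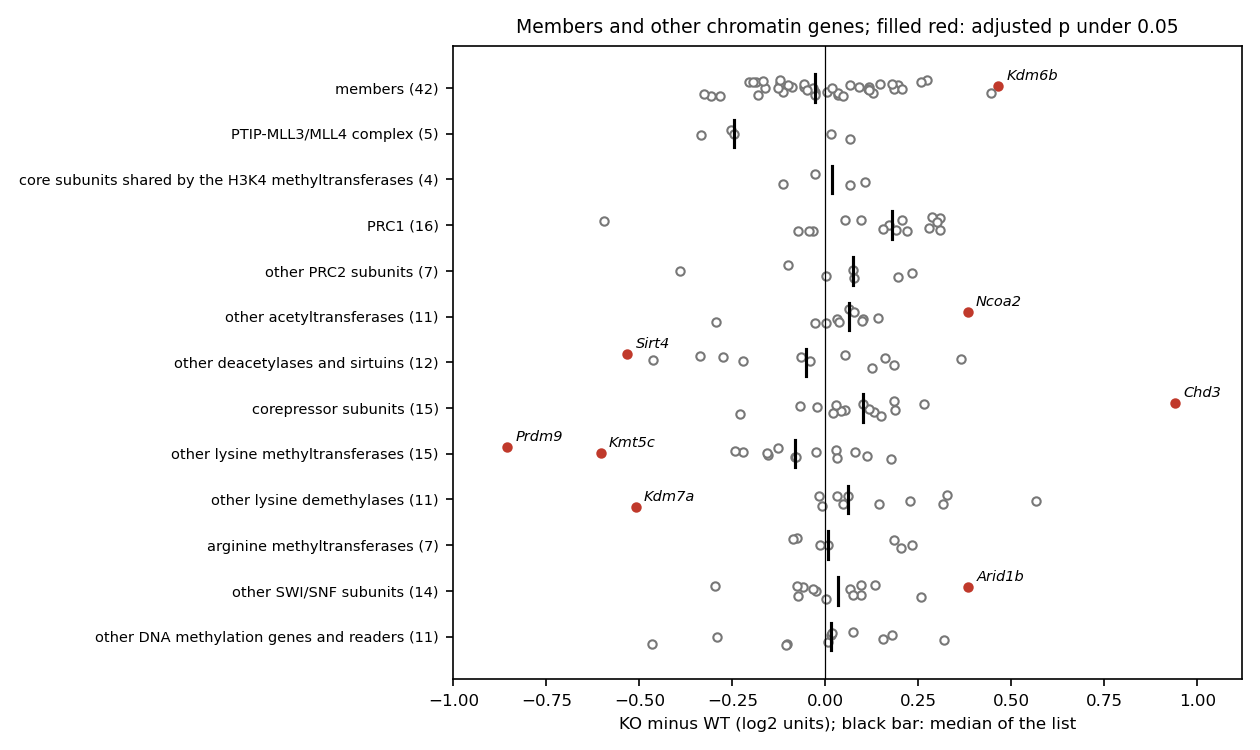
Difference between KO and WT in log2 units (horizontal axis) for the 42 members and for 12 lists of other chromatin genes (rows, number of genes in brackets), with points for genes and bars for list medians. Filled points had an adjusted p under 0.05: Kdm6b among the members, and Chd3, Ncoa2, Arid1b, Prdm9, Kmt5c, Kdm7a and Sirt4 elsewhere.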

How the data were processed

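Affymetrix arrays measured 4 KO and 4 WT pools. For 41345 probe sets the authors deposited log2 values made with RMA and R 3.2.2, per the submitters' processing notes. RMA sets the arrays to 1 shared distribution, so a difference is relative to the other genes, and it flattens differences of dim genes. The precision is limited by the number of arrays, which have no read depth. Array medians lay between 3.68 and 3.74.

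Probe sets with exactly 1 gene symbol in the platform annotation (23521 of 25335) were named, with symbols updated through gene identifiers, and the probe set with the highest mean was kept per gene, which left 22180 genes. KO minus WT was fitted with limma (version 3.58.1, lmFit then eBayes, R 4.3.3), with two-sided p-values adjusted by Benjamini-Hochberg across the 22180 genes, and the code was tested on simulated data. Intervals are at 95% from the moderated fit. Described with all 8 values were each called member and, in role groups without one, the member with the smallest p, and values of a few further members were given after they were seen. Of each list of other chromatin genes, the called ones were named, up to 3. The members and lists were chosen with earlier results of these data known, so their counts are descriptions. The main fit did not treat the arrays as paired by replicate number. Same-numbered KO and WT arrays had correlations of deviations of 0.107, 0.0449, 0.0449 and 0.0363. These are weak but all positive, and they cannot show whether same-numbered pools were handled together. T cell marker means were higher in pools 1 and 2 than in pools 3 and 4 in both genotypes. Alternatives changed the probe set, genes tested, scaling, variance prior, weights, threshold, covariate and pools. Promoter sequences are RefSeq's.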

Additional observations from a re-analysis of the deposited data

Results flagged for a closer look

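Among 100 groups of 4 values looked at (42 members and 8 marker lists in each genotype), 8 had 1 pool far from the other 3 by Dixon's criterion, and about 1 in 20 groups does so by chance, or 5 of 100. In KO, Kmt2e was highest in pool 1, at 10.09, Cxxc1 lowest in pool 1, at 6.34, Kdm1a lowest in pool 2, at 7.71, Hdac3 lowest in pool 4, at 6.03, and Setdb1 highest in pool 3, at 6.93. In WT, Kmt2e was lowest in pool 2, at 10.14, Setd1a lowest in pool 1, at 6.11, and the mean of the B-1a list lowest in pool 2, at 7.36. Setdb1 was the only member whose call changed when the pool in question was left out.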

How the results depend on the processing

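Each of the 42 members was refitted under 20 alternatives, or fewer where a filter removed it, and 26 kept their direction and their side of the threshold in all that were run. Kdm6b was called in 18 of 20, with adjusted p in limma between 0.00324 and 0.434. It lost its call with the mean of its probe sets (0.15) and reversed with the dimmer one (-0.16), so 0 members were called higher in these settings and at an adjusted p under 0.01. Setdb1 was called without KO pool 3. With 1 pool left out, members called higher stayed at 1, members called lower were 0 to 1 and called genes 479 to 758. The total of 797 called genes was 498 without KO pool 2 and 530, 497 and 479 without WT pools 2, 3 and 4. It was 303 without variance moderation, 288 with the T cell covariate, 320 without KO pools 1 and 2, 1202 at an adjusted p under 0.1 and 311 under 0.01. With the replicate number as a block 666 genes were called, 579 of them shared, and Kdm6b differed by 0.46 (adjusted p = 0.0317); same-numbered arrays correlated best in 2 of 4 cases, and the block changed no member's call. In all, 15 members changed sign in at least 1 alternative, and of these only Kdm6b was called in any. With the T cell covariate the values were 0.078 for Men1, 0.057 for Cxxc1, 0.059 for Hdac1, 0.080 for Hdac7, -0.045 for Kdm4c, 0.12 for Kdm2a and 0.022 for Smarca4. Without KO pools 1 and 2 they were 0.049 for Men1, 0.018 for Hdac1, 0.0019 for Kdm4a, 0.10 for Kdm2a and 0.0035 for Smarca4. With repeated quantile normalization they were 0.018 for Hdac7 and 0.0039 for Kdm4a, and with array weights Kdm5c was -0.00037. With 1 pool left out, values ran from -0.13 to 0.087 for Men1, -0.091 to 0.034 for Kdm2a, -0.0057 to 0.038 for Ehmt1, -0.089 to 0.011 for Kdm4a, -0.024 to 0.034 for Kdm5c, -0.015 to 0.060 for Ezh2, -0.19 to 0.018 for Hdac3, -0.10 to 0.019 for Hdac7, -0.053 to 0.065 for Setd1a and -0.069 to 0.11 for Hdac4. Fits with fewer pools or a covariate have less power, and 8 arrays limit what small differences can show.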

Other observations

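Within WT, pool 1 held the lowest value of 20 of the 42 members, and WT pool 4 the highest of 19. In KO no pool was lowest for more than 13 members or highest for more than 15. The same WT pool 1 had the highest mean of the macrophage markers, 5.28, and of the mast cell and granulocyte markers, 3.71, against at most 4.86 and 3.22 in the other WT pools. Cpa3, a mast cell protease gene, was between 4.504 and 5.48 in the KO pools, against 6.999 in WT pool 1 and between 3.75 and 4.14 in the other WT pools.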
